A study of Homo sapiens with 9 samples.

Results

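The ARID genes encode nuclear proteins that share a DNA-binding domain, the AT-rich interaction domain. The members described here, ARID1A, ARID1B, ARID2, ARID3A, ARID3B, ARID4A, ARID4B, ARID5A and ARID5B, were taken by name with all of their probes. The family was chosen by the measured log2 signals of ARID5B, which were higher after GANP siRNA and lower after NXF1 siRNA than with control siRNA, and the other members were not chosen by their values. Of these 9 genes 8 had a probe, 16 probes in all, among 18665 genes named on the array. No probe was listed under ARID4A, which is therefore not analysed here.

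HCT116 cells, a human colorectal carcinoma line, were transfected with GANP siRNA, NXF1 siRNA or a control siRNA, 1 sequence each, and RNA was taken from the digitonin-released cytoplasm 72 h later. GANP is the scaffold of the TREX-2 complex and NXF1 the principal receptor for nuclear export of bulk mRNA, and the comparison addresses which transcripts were less or more abundant in the cytoplasm after loss of each. The RNA was hybridised to 9 Illumina bead arrays, 3 per group, and each of 3 depletion experiments supplied 1 array to every group. According to the paper the control siRNA was the GANP sequence with mismatched bases, whereas the NXF1 siRNA had another sequence. No other alteration of the cells is labelled, and depletion by a single siRNA cannot be told apart from other effects of that siRNA.

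ARID proteins work mostly as parts of chromatin complexes. ARID1A and ARID1B are alternative subunits of the BAF form of SWI/SNF, the ATP-driven nucleosome remodeller, and ARID2 belongs to the PBAF form. ARID3A and ARID3B are sequence-specific DNA-binding factors linked to RB and E2F, ARID4A and ARID4B belong to the SIN3-HDAC corepressor, ARID5A binds RNA as well as DNA and prolongs the life of inflammatory mRNAs such as IL6, and ARID5B works with the histone demethylase PHF2.

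All values below are log2 signals in experiments 1, 2 and 3 in that order, after background modelling and quantile normalization of the authors' signals. Every rise or fall is therefore relative to the other genes of the array, and in bulk RNA fewer cells of a type and less RNA per cell cannot be told apart. A gene was tested where it had its own probe, one with 1 gene symbol, whose mean log2 signal exceeded 6.35 (the median over probes), and its brightest such probe stood for it. The filter left 13118 genes, and all 8 ARID genes with a probe were among them through 11 of their 16 probes. Calls needed a Benjamini-Hochberg adjusted p under 0.05 over all genes in limma's moderated test and a log2 fold change over 0.25 (up) or under -0.25 (down).

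MCM3AP, which encodes GANP, gave 8.59, 8.80 and 8.76 after GANP siRNA, 9.65, 9.70 and 9.82 after NXF1 siRNA and 9.59, 9.80 and 9.88 with control siRNA. It fell by 1.04 on the log2 scale after GANP siRNA (standard error 0.10, adjusted p = 7.02e-05 in limma's test), and NXF1, with 0 probes under its symbol, could not be checked in the same way. Of 8 colon epithelial markers 6 lay above percentile 75 of the probes (EPCAM, CDH1, KRT8, KRT18, KRT19 and CLDN7), and of the fibroblast (6), blood cell (4) and endothelial (3) markers with a probe 0 did. The mean level of the epithelial list was 10.52 to 10.77 after GANP siRNA, 10.85 to 10.88 after NXF1 siRNA and 10.49 to 10.57 with control siRNA. The part of this difference in the ARID values was not tested.

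ARID5B stood highest after GANP siRNA, between the others with control siRNA and lowest after NXF1 siRNA. Its single probe gave 9.97, 10.00 and 10.36 after GANP siRNA, 8.40, 8.13 and 8.68 after NXF1 siRNA and 9.12, 9.28 and 9.47 with control siRNA. The 3 groups did not overlap in either step of this order. On the authors' linear scale the signals were 1015, 1036 and 1331 after GANP siRNA, 351, 292 and 422 after NXF1 siRNA and 568, 636 and 720 with control siRNA.

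The log2 fold change of ARID5B was 0.82 after GANP siRNA (standard error 0.15, a fold of 1.77) and -0.89 after NXF1 siRNA (standard error 0.15, a fold of 0.541), both against the same control arrays. Because ARID5B was chosen for exactly these values, they are a description and no test is given. Within experiments 1, 2 and 3 the difference from the control array was 0.85, 0.72 and 0.90 after GANP siRNA. It was -0.72, -1.15 and -0.79 after NXF1 siRNA, so that the sign was the same in every experiment, and the NXF1 array of experiment 2 lay farthest from its control. Between GANP siRNA and NXF1 siRNA the log2 fold change was 1.71 (standard error 0.15, a fold of 3.27), which was the 2nd largest of 13118 genes by size. Against control siRNA the rank of ARID5B by size was 66 after GANP siRNA and 187 after NXF1 siRNA. A rise after GANP siRNA with a fall after NXF1 siRNA, both called, was found in 47 genes (0.358% of those tested), the class from which ARID5B was picked.

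**Figure D1:**
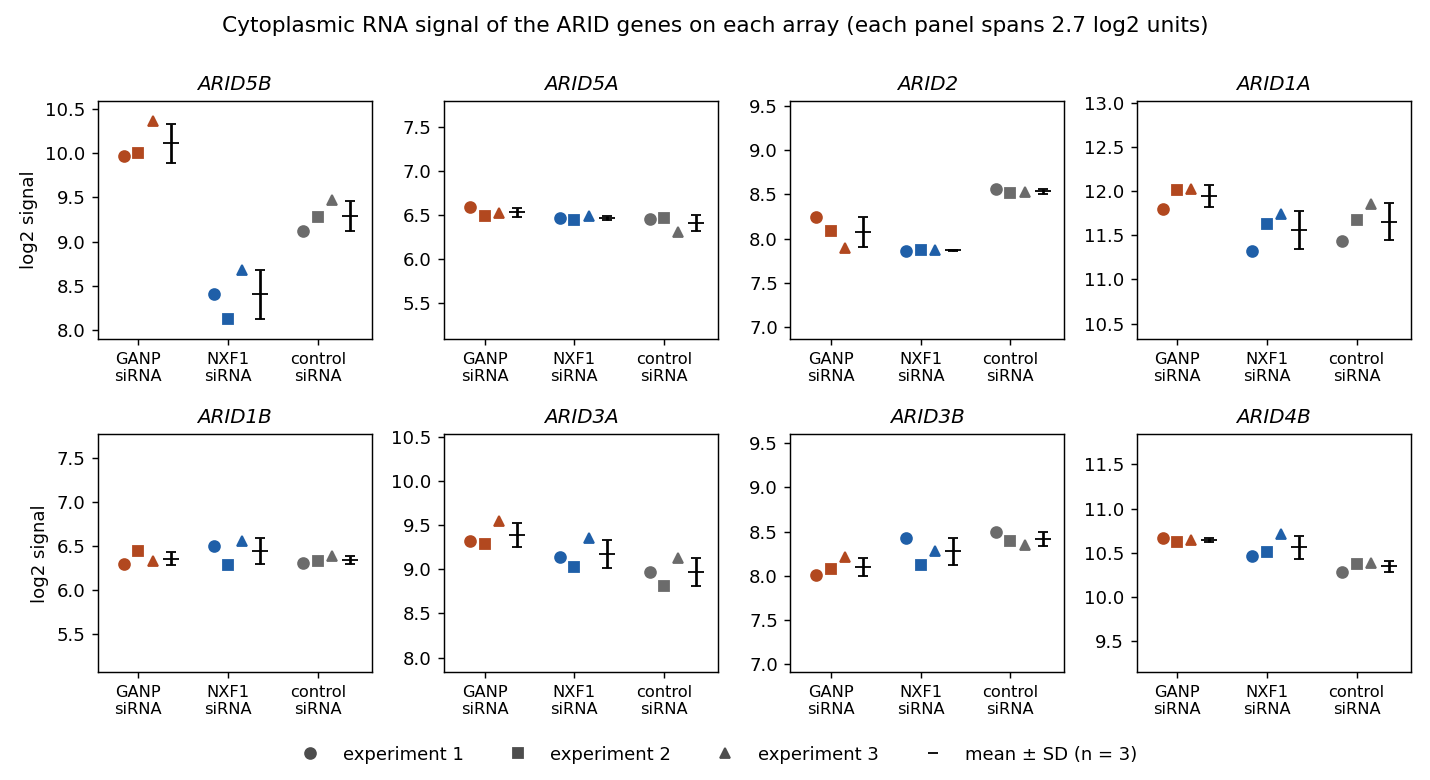
Log2 signal (vertical axis) of the 8 ARID genes with a probe on each of the 9 arrays, with GANP siRNA, NXF1 siRNA and control siRNA from left to right in each panel. Marker shapes are experiments, the bars give the mean ± SD of 3 arrays, and every panel spans the same range of log2 units. ARID5B separates into 3 levels, ARID2 lies lower after both siRNAs, and ARID1B and ARID5A lie near 6.4 in every group.

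ARID5A, the paralogue of ARID5B, showed none of this spread. It gave 6.59, 6.49 and 6.52 after GANP siRNA, 6.46, 6.44 and 6.49 after NXF1 siRNA and 6.45, 6.47 and 6.30 with control siRNA. The GANP arrays lay just above the control arrays and the NXF1 arrays overlapped them. The difference from control siRNA was 0.13 on the log2 scale after GANP siRNA (95% interval -0.04 to 0.29) and 0.06 after NXF1 siRNA (95% interval -0.11 to 0.22), with adjusted p = 0.337 and adjusted p = 0.644 in limma's test. Its level was close to the signal filter, and the other 2 of its 3 probes were below it.

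ARID2, the DNA-binding subunit of PBAF, was downregulated by both siRNAs. It gave 8.24, 8.09 and 7.90 after GANP siRNA, 7.86, 7.87 and 7.87 after NXF1 siRNA and 8.56, 8.51 and 8.53 with control siRNA. All 6 arrays of depleted cells lay below the 3 control arrays, and the GANP arrays lay above the NXF1 arrays, by a narrow margin in experiment 3. The log2 fold change was -0.46 after GANP siRNA (standard error 0.09, a fold of 0.727, adjusted p = 0.00529 in limma's test) and -0.67 after NXF1 siRNA (standard error 0.09, a fold of 0.629, adjusted p = 1.67e-04). ARID2 was called down in both comparisons whichever array was left out, and 498 genes (3.80% of those tested) were called down in both.

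The order of ARID2 between the depleted groups did not pass the test. GANP siRNA against NXF1 siRNA gave a log2 fold change of 0.21 (95% interval 0.02 to 0.40), with adjusted p = 0.12 in limma's test. Without the GANP array of experiment 3 it was 0.30 with adjusted p = 0.0357. The second ARID2 probe gave 7.13, 7.88 and 7.65 after GANP siRNA, 7.17, 7.43 and 7.44 after NXF1 siRNA and 7.66, 7.83 and 8.18 with control siRNA. Its GANP arrays overlapped the control arrays, whereas its NXF1 arrays lay below all of them. In a fit of all probes its log2 fold change was -0.34 after GANP siRNA (adjusted p = 0.317) and -0.54 after NXF1 siRNA (standard error 0.17, adjusted p = 0.0382), so both ARID2 probes were called down after NXF1 siRNA (as were 7.71% of all probes, with 7.03% up) and 1 of them after GANP siRNA (2.89% of all probes).

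ARID1A, the DNA-binding subunit of BAF that is often lost in carcinomas, was higher after GANP siRNA than after NXF1 siRNA on every array. It gave 11.80, 12.01 and 12.03 after GANP siRNA, 11.32, 11.63 and 11.74 after NXF1 siRNA and 11.43, 11.67 and 11.86 with control siRNA. In each group experiment 1 was lowest and experiment 3 highest, and of the GANP arrays only that of experiment 1 was below a control array, that of experiment 3. ARID1A had a log2 fold change of 0.29 after GANP siRNA (standard error 0.13, adjusted p = 0.171 in limma's test) and -0.09 after NXF1 siRNA (standard error 0.13, adjusted p = 0.666). With the experiment number as a block the rise after GANP siRNA was called (0.29, standard error 0.07, adjusted p = 0.0117), and the differences within experiments 1, 2 and 3 were 0.37, 0.34 and 0.17.

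Between GANP siRNA and NXF1 siRNA the log2 fold change of ARID1A was 0.38 (standard error 0.13, adjusted p = 0.0527), which missed the threshold by little and was called with the block (adjusted p = 0.00212). It was also called without the GANP array of experiment 1 (0.45, adjusted p = 0.0444), without the NXF1 array of experiment 3 (0.47, adjusted p = 0.0381) and without the control array of experiment 1 or 3 (0.38, adjusted p = 0.0355 and 0.0429). The second ARID1A probe was below the signal filter and gave log2 fold changes of -0.12 and -0.02 after GANP and NXF1 siRNA.

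ARID1B, which takes the place of ARID1A in other BAF complexes, gave 6.30, 6.44 and 6.34 after GANP siRNA, 6.50, 6.28 and 6.56 after NXF1 siRNA and 6.31, 6.33 and 6.39 with control siRNA. All 3 groups overlapped. On the log2 scale the difference from control siRNA was 0.02 after GANP siRNA (95% interval -0.17 to 0.20) and 0.10 after NXF1 siRNA (95% interval -0.09 to 0.29). As for ARID5A, this level was close to the filter and 2 of the 3 ARID1B probes were below it.

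ARID3A, a factor known as Bright in mouse B cells for its binding at the immunoglobulin heavy chain locus, rose after GANP siRNA. It gave 9.32, 9.29 and 9.55 after GANP siRNA, 9.14, 9.03 and 9.35 after NXF1 siRNA and 8.97, 8.82 and 9.13 with control siRNA. The GANP arrays lay above all control arrays, and the NXF1 arrays lay between them and overlapped both. ARID3A had a log2 fold change of 0.42 after GANP siRNA (standard error 0.11, a fold of 1.33, adjusted p = 0.0278 in limma's test) and 0.20 after NXF1 siRNA (standard error 0.11, adjusted p = 0.207). With the experiment number as a block the value after NXF1 siRNA had a standard error of 0.06 and adjusted p = 0.0238 in limma's test. It was not called because it lay under the fold threshold. Within every experiment the order was GANP siRNA, NXF1 siRNA and control siRNA from high to low, with differences from the control array of 0.36, 0.47 and 0.42 after GANP siRNA. The call was lost without the control array of experiment 1 (0.41, adjusted p = 0.0678) or 2 (0.34, adjusted p = 0.122) and without the GANP array of experiment 3 (0.34, adjusted p = 0.109).

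ARID3B, the paralogue of ARID3A, moved the other way. It gave 8.01, 8.07 and 8.21 after GANP siRNA, 8.43, 8.12 and 8.28 after NXF1 siRNA and 8.50, 8.39 and 8.35 with control siRNA. The GANP arrays lay below all control arrays and the NXF1 arrays overlapped both. Against control siRNA the log2 fold change was -0.32 after GANP siRNA (standard error 0.09, a fold of 0.803, adjusted p = 0.0468 in limma's test) and -0.14 after NXF1 siRNA (standard error 0.09, adjusted p = 0.33). This call was close to the threshold. It was lost without any one of the 3 GANP arrays, the 3 control arrays or the NXF1 array of experiment 3 (log2 fold change -0.27 to -0.37, adjusted p = 0.0513 to 0.141).

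ARID4B, a subunit of the SIN3-HDAC corepressor, rose after GANP siRNA by a small amount. It gave 10.67, 10.62 and 10.65 after GANP siRNA, 10.46, 10.51 and 10.71 after NXF1 siRNA and 10.28, 10.37 and 10.38 with control siRNA. All 6 arrays of depleted cells lay above the 3 control arrays, and the GANP and NXF1 arrays overlapped. Against control siRNA the log2 fold change was 0.30 after GANP siRNA (standard error 0.08, a fold of 1.23, adjusted p = 0.0326 in limma's test) and 0.22 after NXF1 siRNA (standard error 0.08, adjusted p = 0.0685). With the experiment block the value after NXF1 siRNA had adjusted p = 0.0332 in limma's test but lay under the fold threshold. The call after GANP siRNA was lost without any one of the GANP or control arrays (0.27 to 0.32, adjusted p = 0.065 to 0.105), and without the NXF1 array of experiment 1 ARID4B was called up after NXF1 siRNA (0.27, adjusted p = 0.0421).

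The other probes of ARID4B bore differently on the 2 comparisons. After GANP siRNA all 3 probes were above the control mean, with log2 fold changes of 0.30, 0.20 and 0.16 from the brightest probe down, none of them called in the fit of all probes (adjusted p = 0.0505, 0.216 and 0.392), where 3.12% of probes were called up. After NXF1 siRNA they were 0.22, 0.19 and -0.09. The mean of the 3 probes gave 0.22 after GANP siRNA, under the fold threshold.

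**Figure D2:**
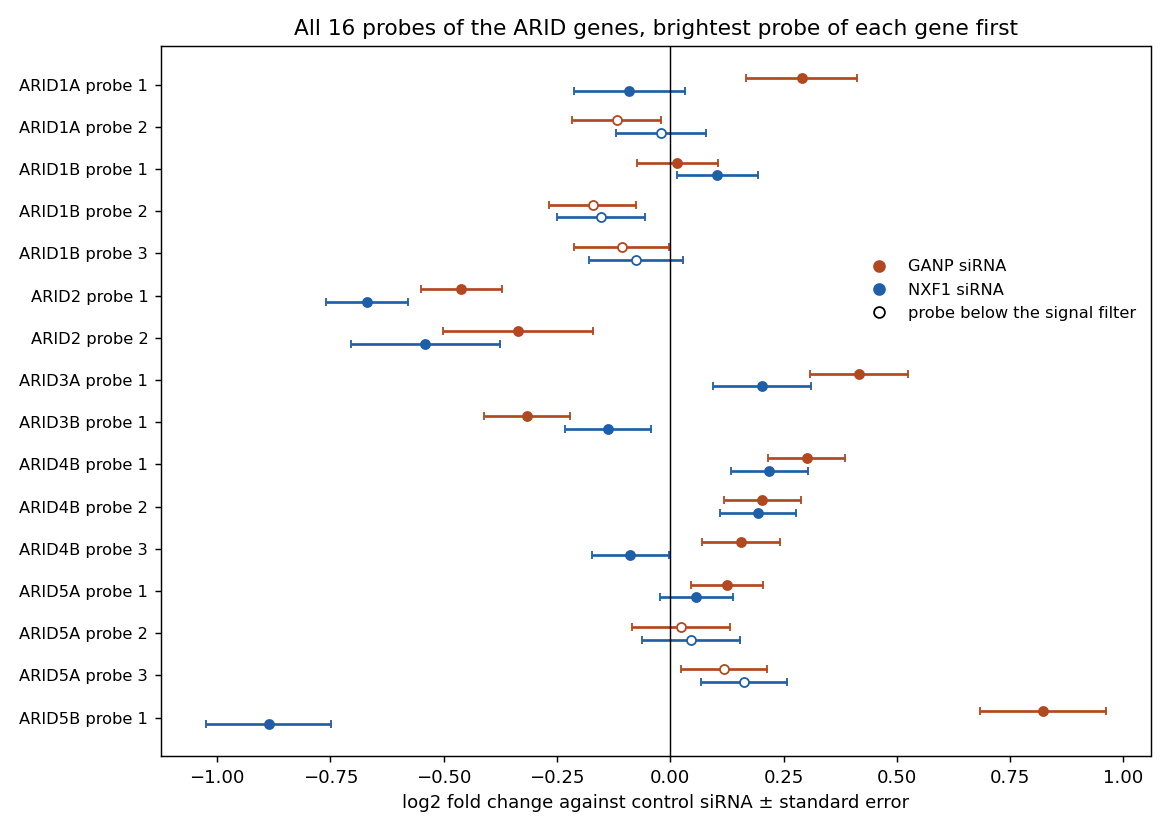
Log2 fold change against control siRNA (horizontal axis, bars are standard errors) of all 16 ARID probes, with the brightest probe of each gene first. Points for GANP siRNA are drawn above those for NXF1 siRNA, and open points are the 5 probes below the signal filter. Both ARID2 probes lie left of 0 after both siRNAs, and the third ARID4B probe has opposite signs.

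Counted over the 7 tested genes other than ARID5B, 2 rose (ARID3A and ARID4B) and 2 fell (ARID2 and ARID3B) after GANP siRNA, or 57.1%, where 12.2% of all genes tested were called, 6.28% up and 5.90% down. With the experiment block 3 rose and 2 fell, against 17.6% of all genes. A signal filter at percentile 75 removed ARID1B and ARID5A. Among the brighter genes that it left, 4 ARID genes other than ARID5B were called after GANP siRNA, beside 1675 of all 8437 genes. In the fit of all probes 1 of the 15 ARID probes other than that of ARID5B was called up (ARID3A) and 1 down (ARID2) after GANP siRNA. There 3.12% of all probes were called up and 2.89% down, and ARID3B (adjusted p = 0.0657) and ARID4B were not called. After NXF1 siRNA 0 rose and 1 fell (ARID2), or 14.3%, where 25.6% of all genes were called, 11.6% up and 14.0% down, and with the block the same counts stood beside 29.4% of all genes. Between GANP siRNA and NXF1 siRNA limma called 0 of the 7 genes, where 19.6% of all genes were called (11.3% up and 8.29% down). The block called 1 of them, ARID1A, and 24.1% of all genes.

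The array values gave similar counts. After GANP siRNA the arrays of 3 of the 7 genes lay wholly above the control arrays (ARID3A, ARID4B and ARID5A) and those of 2 wholly below (ARID2 and ARID3B), where 31.3% of all genes did not overlap, 15.8% above and 15.5% below. After NXF1 siRNA this held for 1 above (ARID4B) and 1 below (ARID2), where the share over all genes was 39.7% (18.7% above and 21.0% below), and between GANP and NXF1 siRNA for 2 above (ARID1A and ARID2), where it was 34.6% (18.5% above and 16.1% below). The median absolute log2 fold change of the 7 genes was 0.30 after GANP siRNA, 0.14 after NXF1 siRNA and 0.18 between the depleted groups, and that of all genes tested was 0.12, 0.15 and 0.14. The signed medians of the 7 genes were 0.13, 0.06 and 0.08, and each comparison held both positive and negative values.

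**Figure D3:**
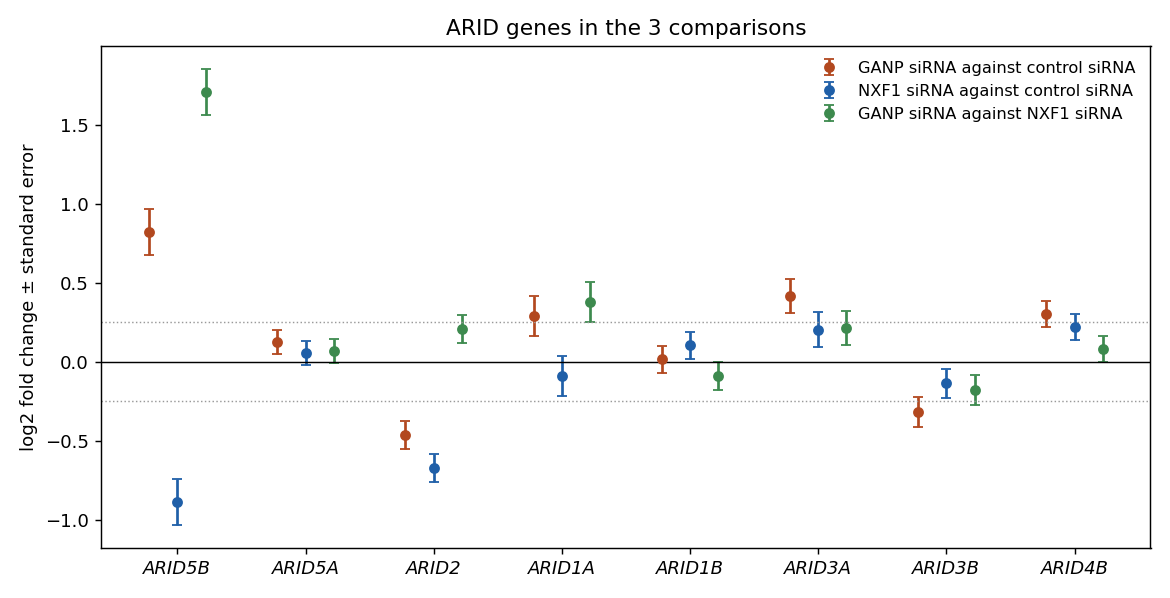
Log2 fold change (vertical axis, bars are standard errors) of the 8 ARID genes for GANP siRNA against control siRNA, NXF1 siRNA against control siRNA and GANP siRNA against NXF1 siRNA. Dotted lines mark 0.25 and -0.25. ARID5B reaches 0.82, -0.89 and 1.71, and of the others ARID2 is past a dotted line in both comparisons with control siRNA.

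The partners of the ARID proteins were taken from lists by complex. The list of BAF and PBAF subunits covers the complexes of ARID1A, ARID1B and ARID2 and also a separate BAF form that holds BRD9. Of 24 measured subunits 2 rose and 0 fell after GANP siRNA (8.33%, with 12.2% of all genes called). After NXF1 siRNA 2 rose and 3 fell (20.8%, with 25.6% of all genes called). With the block 3 rose after GANP siRNA, the added gene being SMARCD3 (0.38, adjusted p = 0.00386). The ATPase SMARCA2 gave 8.74, 8.86 and 8.81 after GANP siRNA and 8.42, 8.26 and 8.34 with control siRNA (log2 fold change 0.46, adjusted p = 0.00211 in limma's test). Its alternative ATPase SMARCA4 gave 11.24, 11.31 and 11.41 after NXF1 siRNA and 11.57, 11.67 and 11.81 with control siRNA (-0.37, adjusted p = 0.0125), a call lost without the control array of experiment 3 (-0.30, adjusted p = 0.0593). Against control siRNA, SMARCA2 was not called after NXF1 siRNA (0.11, adjusted p = 0.309), nor SMARCA4 after GANP siRNA (-0.11, adjusted p = 0.541). BICRA, a subunit of the BAF form that holds BRD9, rose after both siRNAs, by 0.36 and 0.32 (adjusted p = 0.00675 and 0.00545). BCL11A fell by 0.58 after NXF1 siRNA (adjusted p = 0.00147), but by only 0.23 and without a call when its probes were averaged.

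Of 15 SIN3 and HDAC complex genes, the partners of ARID4B, 1 rose and 0 fell after GANP siRNA (HDAC1, a deacetylase, log2 fold change 0.30, adjusted p = 0.0188 in limma's test), or 6.67% with 12.2% of all genes called, and 0 rose and 2 fell after NXF1 siRNA, or 13.3% with 25.6% of all genes called. With the block 1 rose and 2 fell after either siRNA, beside 17.6% and 29.4% of all genes, and those that fell after GANP siRNA were SAP18 (-0.37, adjusted p = 0.00855) and BRMS1 (-0.26, adjusted p = 0.0375). The gene that rose after NXF1 siRNA with the block was SAP30L (0.34, adjusted p = 0.0357). The HDAC1 call was lost without the GANP array of experiment 3 or any control array (0.27 to 0.32, with a highest adjusted p of 0.0778). SAP18, shared by SIN3 complexes and exon junction complexes, gave 9.23, 9.04 and 8.56 after NXF1 siRNA and 9.85, 9.97 and 9.53 with control siRNA. Its arrays after NXF1 siRNA lay below every control array (-0.84, standard error 0.17, adjusted p = 0.00292).

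Of 13 RB and E2F genes, to which ARID3A, ARID3B and ARID4B are linked, 2 rose and 0 fell after GANP siRNA (15.4%, with 12.2% of all genes called), and 0 rose and 2 fell after NXF1 siRNA (15.4%, with 25.6% of all genes called). With the block 1 also rose after NXF1 siRNA, E2F7 (0.29, adjusted p = 0.0106). RBL2, the pocket protein p130, gave 9.17, 9.18 and 9.12 after GANP siRNA, 8.65, 8.39 and 8.42 after NXF1 siRNA and 8.87, 8.86 and 8.83 with control siRNA. Like ARID5B it had 3 levels without overlap, with log2 fold changes of 0.30 after GANP siRNA (adjusted p = 0.0307 in limma's test, up to 0.0924 and not called without any one of the GANP or control arrays), -0.37 after NXF1 siRNA (adjusted p = 0.00519) and 0.67 between them (adjusted p = 1.85e-04). TFDP2, a dimerisation partner of E2F factors, rose by 0.61 after GANP siRNA (standard error 0.09, adjusted p = 0.00143). TFDP1, another such partner, was not called after GANP siRNA (0.01, adjusted p = 0.977) or NXF1 siRNA (0.08, adjusted p = 0.528). Between GANP and NXF1 siRNA 2 genes of the list were higher and 1 lower after GANP siRNA (23.1%, with 19.6% of all genes called). The lower one, E2F4, had 3 levels without overlap in the reverse order of RBL2. It gave 11.06, 11.07 and 11.06 after GANP siRNA, 11.45, 11.40 and 11.48 after NXF1 siRNA and 11.19, 11.20 and 11.27 with control siRNA (-0.38 between GANP and NXF1 siRNA, adjusted p = 0.00243).

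Of 4 other measured genes with an ARID domain 1 rose after GANP siRNA and 0 were called after NXF1 siRNA, where 12.2% and 25.6% of all genes were called. The gene that rose was KDM5B, a demethylase of histone H3 lysine 4, which gave 9.95, 10.01 and 10.08 after GANP siRNA, 9.30, 9.26 and 9.31 after NXF1 siRNA and 9.22, 9.43 and 9.53 with control siRNA. Its log2 fold change was 0.62 after GANP siRNA (standard error 0.09, adjusted p = 9.18e-04 in limma's test) and 0.73 between GANP and NXF1 siRNA (standard error 0.09, adjusted p = 1.68e-04). Of 5 genes tied to ARID5A or ARID5B, 1 rose after GANP siRNA and 1 fell after NXF1 siRNA, beside the same shares of all genes. STAT3, a transcription factor whose mRNA ARID5A stabilises in mouse T cells, rose by 0.48 after GANP siRNA (standard error 0.07, adjusted p = 0.00115). IL6 (-0.17 and -0.20 after GANP and NXF1 siRNA) and PHF2 (0.13 and -0.10) were not called. The GANP arrays of IL6 lay below all of its control arrays, as did those of 15.5% of all genes tested. SOX9, with which ARID5B acts in mouse cartilage, fell by 0.49 after NXF1 siRNA (standard error 0.16, adjusted p = 0.0424). Its arrays overlapped those of the controls. The call was lost without any one control array or without the NXF1 array of experiment 2 or 3 (adjusted p up to 0.158). With the block the fall of SOX9 was called (adjusted p = 7.44e-04). So was its higher level after GANP siRNA than after NXF1 siRNA (0.41, adjusted p = 0.00301).

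Over the 61 partner genes tested, 7 rose and 0 fell after GANP siRNA (11.5%), 2 rose and 8 fell after NXF1 siRNA (16.4%), and 7 were higher and 3 lower after GANP siRNA than after NXF1 siRNA (16.4%). The shares over all genes tested were 12.2%, 25.6% and 19.6%. With the experiment block 8 rose and 2 fell after GANP siRNA, 4 rose and 8 fell after NXF1 siRNA, and 11 were higher and 3 lower after GANP siRNA than after NXF1 siRNA, where 17.6%, 29.4% and 24.1% of all genes were called. The median log2 fold change of the partners was -0.02 after either siRNA and 0.06 between them.

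**Figure D4:**
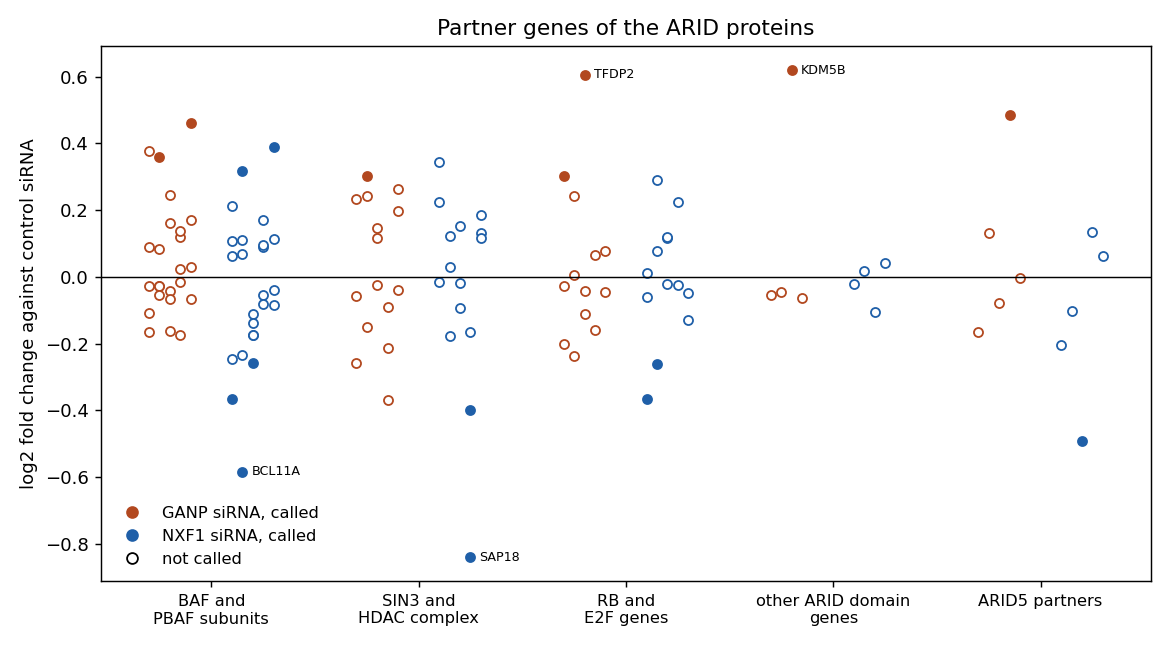
Log2 fold change against control siRNA (vertical axis) of each tested partner gene in the 5 lists, with GANP siRNA left and NXF1 siRNA right within each list. Filled points were called, and genes beyond 0.55 in size are named. After GANP siRNA the 7 filled points all lie above 0, and after NXF1 siRNA 2 lie above and 8 below.

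The genes whose values over the 9 arrays were nearest to those of ARID5B were found from the root mean square difference between log2 signals, each gene being set to its own control mean. They were CPT1C (0.25), a brain member of the carnitine palmitoyltransferases, ACTA2 (0.28), smooth muscle actin, DENND5B (0.29), CCDC92 (0.29), FEZ1 (0.29), a kinesin adaptor, RCAN2 (0.29), a calcineurin regulator, GSDME (0.30), a pore-forming gasdermin, and FAM117B (0.31). The median of this difference over all genes tested was 0.74, and the values of ARID5B lay 0.72 from its own control mean. All 8 genes were higher after GANP siRNA and lower after NXF1 siRNA, as the measure of likeness requires, with log2 fold changes of 0.38 (FEZ1) to 0.71 (CCDC92) after GANP siRNA. After NXF1 siRNA they were between -0.91 (ACTA2) and -0.53 (CCDC92). ARID5B, at 0.82, was above this range after GANP siRNA and, at -0.89, inside it after NXF1 siRNA.

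**Figure D5:**
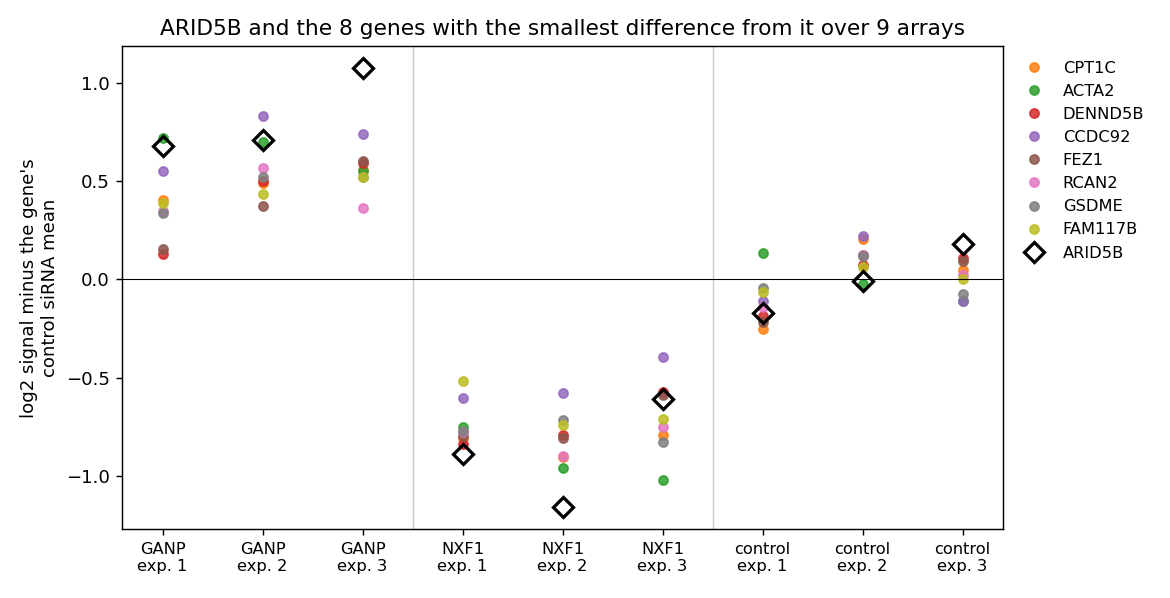
Log2 signal minus the gene's own control siRNA mean (vertical axis) on each of the 9 arrays for ARID5B (diamonds) and the 8 genes nearest to it (circles). All 9 genes lie above 0 on the GANP siRNA arrays and below 0 on the NXF1 siRNA arrays, and ARID5B lies above the other 8 on the GANP array of experiment 3.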

How the data were processed

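Groups and experiment numbers were taken from the sample labels, and the 3 experiments were separate depletions. The authors amplified the RNA, read the bead arrays with BeadStudio and applied quantile normalization, and the deposited signal intensities are on the linear scale. The submitters' notes name lumi. A further deposited table of 18 columns of signals and detection p-values was not used, since no label pairs its columns with a sample. Of 48803 probes, 27578 had 1 gene symbol in the platform annotation, 13 several and 21212 none.

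Signals were corrected with normexp (offset 50), quantile normalized again and log2 transformed in limma 3.58.1 (R 4.3.3), with the authors' values as an alternative. The 3 groups were fitted together (lmFit, eBayes). The probe fit used all 27578 probes. The precision is limited by 3 arrays per group. Arrays of one experiment deviated together: the 9 same-experiment pairs correlated at 0.107 to 0.461 across genes and the 18 others at -0.40 to 0.12, so the number was also used as a block.

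The ARID genes, the partner lists and the settings were chosen with earlier results of these data known. Named were all ARID genes, MCM3AP, the 8 genes nearest to ARID5B and examples from up to 4 called genes with the largest change per partner list and comparison. SMARCD3, SAP30L, E2F7 and TFDP1, and the values of IL6 and PHF2, were added after their values were seen. Alternatives were the block, background correction, normalization, signal filter, probe choice, groups fitted, an intensity trend, thresholds and leaving out each array.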

Additional observations from a re-analysis of the deposited data

How the results depend on the processing

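Of the 7 ARID genes other than ARID5B, 4 were called after GANP siRNA, 1 at an adjusted p under 0.01 and between 1 and 4 when each array was left out in turn. Over all genes (13118 tested in the main fit) 1598 were called, 659 at an adjusted p under 0.01 and 880 to 1767 with an array left out. After NXF1 siRNA 1 was called, and between 1 and 2 with an array left out. Over all genes 3363 were called, and 2605 to 3415 with an array left out. Between GANP siRNA and NXF1 siRNA 0 were called, but 1 under the replicate block, which uses the pairing by experiment, and 1 (ARID1A in each case) with no background correction, with the authors' values, with a filter at percentile 75, with only the 2 groups fitted, with an intensity trend and at an adjusted p under 0.1, and between 0 and 1 with an array left out. The block gave 5 after GANP siRNA and 1 after NXF1 siRNA, and changed no other ARID call. Of the partner genes 10 were called after NXF1 siRNA, 4 at an adjusted p under 0.01 and between 5 and 11 with an array left out, the lowest without the control array of experiment 3. With no signal filter ARID3B missed the threshold after GANP siRNA (adjusted p = 0.0558), and the filter at percentile 75 removed ARID1B and ARID5A. Signs that turned when an array was left out belonged to uncalled log2 fold changes, here with the range over the arrays left out: ARID1B after GANP siRNA (-0.0256 to 0.0443, turned also at -0.0009), ARID1A after NXF1 siRNA (-0.2019 to 0.03, turned also at 0.0114), SOX9 after GANP siRNA (-0.2371 to 0.0081, turned also at 0.0079), BCL7B after GANP siRNA (-0.0504 to 0.1454, turned also at -0.0105 and -0.0214) and E2F2 between GANP and NXF1 siRNA (-0.0158 to 0.0732, turned also at -0.0127). The log2 fold change of ARID5B was between 0.70 and 0.91 after GANP siRNA and between -1.02 and -0.75 after NXF1 siRNA with an array left out. Over all genes, an adjusted p under 0.01 left 659 of 1598 calls after GANP siRNA, 2127 of 3363 after NXF1 siRNA and 1332 of 2571 between them. Between GANP and NXF1 siRNA 1734 to 2623 of all genes were called with an array left out. The other settings named for ARID1A, apart from the block, called 2286 to 3023 of 13118 or 13120 genes, except that the filter at percentile 75 called 2372 of 8437. Probes near background, as for ARID1B and ARID5A, limit what small changes could be seen, and the causes of these differences were not tested.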
